A study of Mus musculus with 12 samples.

Results

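The genes of major histocompatibility complex (MHC) class II antigen presentation were followed through livers labelled Mcl1 KO and livers labelled Mcl1 Sting1 DKO. Chosen by gene symbol, they were *H2-Aa*, *H2-Ab1*, *H2-Eb1*, *H2-DMa*, *H2-DMb1*, *H2-DMb2*, *Cd74*, and *Ciita*, 8 of the 40551 genes in the files, and each symbol matched 1 Ensembl identifier. Total RNA of 12 mouse livers was sequenced, 3 each of the genotypes WT, Mcl1 KO, Mcl1 Sting1 DKO, and Sting1 KO, and reads were counted per gene. In Mcl1 KO mice, floxed *Mcl1*, a gene that protects cells from apoptosis, is deleted by a Cre recombinase under the albumin promoter, which is active in hepatocytes, so the other cells of the liver keep the gene. Sting1 KO mice lack *Sting1*, the adaptor of the cytosolic DNA sensor cGAS, in every cell and have intact *Mcl1*, and Mcl1 Sting1 DKO mice come from crossing both lines. The WT and Mcl1 KO mice were 2 months old, and the age of the mice of both other genotypes was not stated beside their libraries. The mice were of both sexes. The labels do not say that the 3 livers of a genotype come from separate mice or litters, so the p-values below measure the spread between these livers.

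MHC class II molecules present peptides from material that a cell has taken up to CD4+ T cells, and they are made mainly by dendritic cells, B cells, and macrophages, which in the liver include the Kupffer cells. An alpha and a beta chain form the peptide groove, the invariant chain encoded by *Cd74* fills that groove until the molecule reaches an endosome, and the DM heterodimer then helps exchange the last invariant chain fragment for a peptide. Transcription of these genes needs Ciita, a coactivator that does not bind DNA itself but joins factors sitting on a conserved block of short promoter elements, among them the X box and the Y box.

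Letters that resemble the X box and the Y box were found in the promoters of *H2-DMb2*, *H2-DMb1*, and *H2-Eb1*. In that of *H2-Aa*, letters like the Y box followed a cyclic AMP response element. Only the motifs given below were searched, not every element of the block. The stretches are shown because these genes are compared with each other below. The RefSeq promoter table (GRCm38.p6, 250 bases before to 50 bases after a start) held 6 windows of 5 of the 8 genes, and *H2-Ab1*, *Cd74*, and *Ciita* had no entry. The motifs were written down after these windows had been read. They were AACNGATGA, which resembles the X box, GATTGG, which holds the inverted CCAAT of the Y box, and TGACGTCA, a cyclic AMP response element, and both strands were searched. AACNGATGA stood in 0.648% of all 32851 windows, GATTGG in 16.1%, and TGACGTCA in 1.79%. Only 6 windows (0.0183%) held AACNGATGA followed within 60 bases by GATTGG, and 3 of those belonged to *H2-DMb2*, *H2-DMb1*, and *H2-Eb1*. The others belonged to *BC051142*, *Cstf3*, and *Scgb2b20*. Because the motifs were chosen with the windows of the 8 genes in view, the 0.0183% is a description and no test. In the stretches below, written 5′ to 3′ on the strand of the gene, capitals mark the motifs, and the positions are those of an exact match to GRCm39.
H2-DMb2 (chr17:34364090-34364149, plus strand): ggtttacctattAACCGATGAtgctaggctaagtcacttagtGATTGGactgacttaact
H2-DMb1 (chr17:34372061-34372120, plus strand): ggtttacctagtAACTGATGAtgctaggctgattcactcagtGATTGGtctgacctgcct
H2-Eb1 (chr17:34524740-34524798, plus strand): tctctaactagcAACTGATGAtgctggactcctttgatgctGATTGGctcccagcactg
H2-Aa (chr17:34506829-34506883, minus strand): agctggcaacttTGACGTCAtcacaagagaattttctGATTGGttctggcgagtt
The stretches begin 133, 104, 101, and 86 bases before the RefSeq start in this order. The gene bounds given further below are those of the GENCODE annotation, not of RefSeq. By those bounds, the stretches of *H2-DMb2*, *H2-DMb1*, and *H2-Eb1* lie within the genes, and that of *H2-Aa* lies outside. From the first base of one motif to the first base of the next there were 30, 30, 29, and 25 bases. One of the 2 *H2-DMa* windows held GATTGG alone, from position -199 to -194. A match describes the letters, not the binding of a factor.

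The libraries held 28826367 to 45266387 counts, and all 8 genes were among the 15070 that passed the filter on low counts. As a check of the labels, *Mcl1* stood at 90.2 to 104 CPM in WT livers (the counts of a gene relative to a library total scaled with edgeR's TMM factors), and Mcl1 KO livers had 25.0 to 34.0. The libraries labelled Mcl1 Sting1 DKO had 18.1 to 26.0 CPM on *Mcl1*, and those labelled Sting1 KO had 77.0 to 90.1. *Sting1* had 2.11 to 2.53 CPM in WT livers, 3.67 to 6.0 in Mcl1 KO livers, 1.90 to 2.53 in the libraries labelled Mcl1 Sting1 DKO, and 1.16 to 2.70 in those labelled Sting1 KO. The counts on *Sting1* therefore did not set the libraries labelled Sting1 KO apart from WT (log2 fold change -0.33, edgeR adjusted p = 0.998). RNA counts do not measure the protein, and the paper reports that Western blotting showed the knockout in its *Sting1*-null mice. Y-linked genes were expressed, at more than 1 CPM in sum, in WT replicates 2 and 3 and in Mcl1 Sting1 DKO replicate 1, with 4233 to 5294 counts, and the other 9 libraries had 0 to 6 counts on them. Small structured RNAs took 0.172 to 0.369% of counts in WT livers, 0.283, 2.37, and 1.36% in Mcl1 KO replicates 1 to 3, and 0.431 to 0.897% in the other livers.

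Compared with WT, 6 of the 8 genes rose in Mcl1 KO livers, namely the 3 peptide-binding chains, *Cd74*, *H2-DMa*, and *H2-DMb1*, by 1.83- to 3.03-fold. *H2-DMb2* and *Ciita* did not pass the test. In edgeR's quasi-likelihood test, with Benjamini-Hochberg adjustment over all genes tested and a threshold of 0.05, 10.8% of genes were called higher in Mcl1 KO livers. DESeq2 called the same number of the 8 genes, 6, where it called 12.3% of its genes higher. For 7 of the 8, every Mcl1 KO liver lay above every WT liver, which held for 16.2% of all tested genes. The median log2 fold change of the 8 was 1.08, beside -0.005 over all tested genes.

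**Figure D1:**
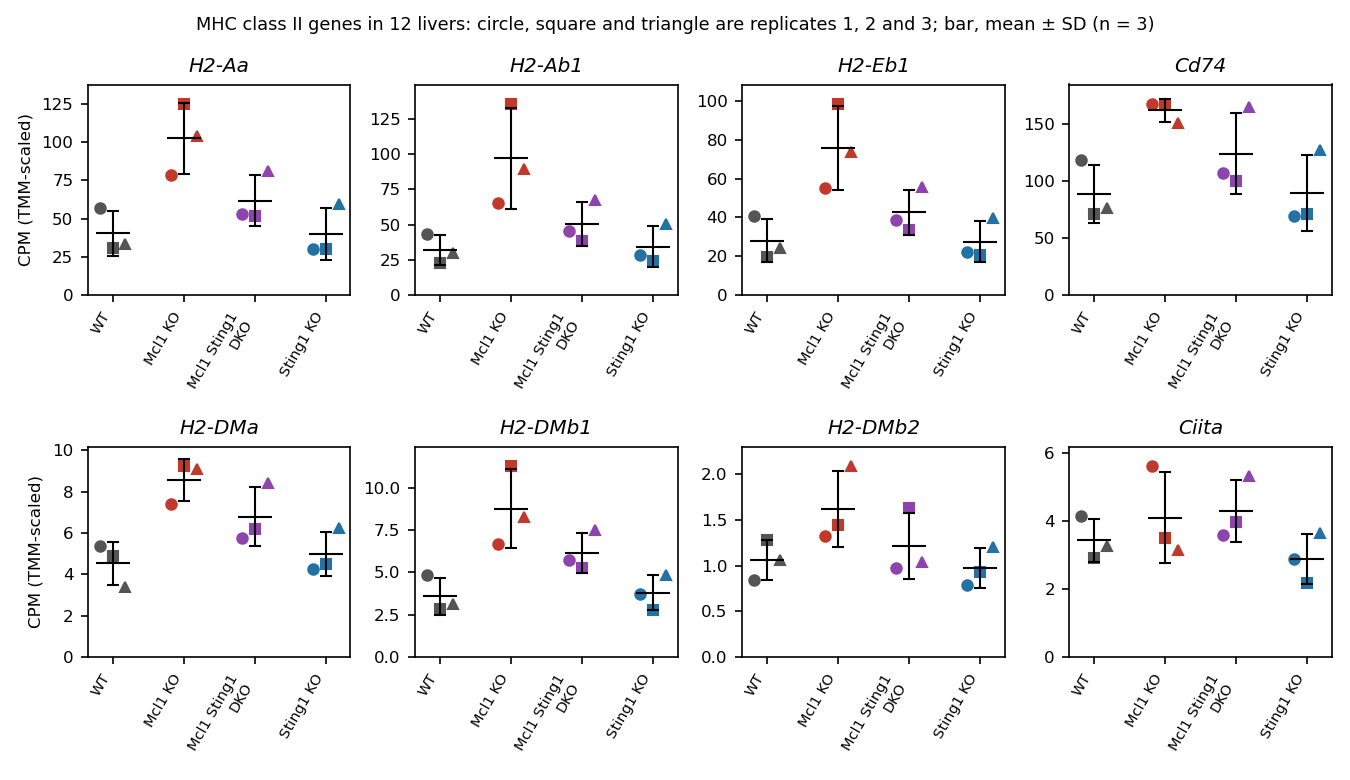
Level of each of the 8 genes in CPM (vertical axes, linear, starting at 0) in each of the 12 livers by genotype, with 1 point a liver and bars for the mean ± SD of 3 livers. The 3 Mcl1 KO livers lie above the 3 WT livers in every panel but that of *Ciita*, and in every panel at least 1 library labelled Mcl1 Sting1 DKO reaches the range of the Mcl1 KO livers.

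*H2-Ab1* encodes the beta chain of the A molecule and lies on chromosome 17 (GRCm39, 34476663 to 34488393, plus strand). Its level was 43.4, 23.0, and 29.6 CPM in the WT livers (replicates 1, 2, and 3, an order kept for all genes) and 65.6, 136, and 89.7 CPM in the Mcl1 KO livers. It had 45.4, 38.0, and 67.7 CPM in the libraries labelled Mcl1 Sting1 DKO and 28.6, 23.9, and 50.7 in those labelled Sting1 KO. All Mcl1 KO livers were above all WT livers, whereas the third Mcl1 Sting1 DKO liver was above the lowest Mcl1 KO liver. Its rise in Mcl1 KO livers had the greatest log2 fold change of the 8 genes, 1.60 (SE 0.36, edgeR adjusted p = 0.012). Of the 8, it also varied most over the 12 livers, by 5.91-fold between the lowest and the highest.

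*H2-Aa*, which encodes the alpha chain that pairs with the *H2-Ab1* product, lies next to it on the other strand (34493404 to 34506798). Its levels were 57.0, 30.4, and 33.6 CPM in WT and 78.8, 125, and 104 in Mcl1 KO livers. The libraries labelled Mcl1 Sting1 DKO had 52.8, 51.5, and 81.3 CPM, and those labelled Sting1 KO had 29.9, 30.2, and 59.7. The Mcl1 KO livers again did not overlap the WT livers, and the log2 fold change was 1.35 (SE 0.33, edgeR adjusted p = 0.0168). *H2-Eb1*, the beta chain gene of the E molecule (34504236 to 34535648, plus strand), had 40.5, 19.4, and 24.1 CPM in WT and 55.3, 98.6, and 73.5 in Mcl1 KO livers. Its levels were 38.5, 33.4, and 55.8 CPM in the libraries labelled Mcl1 Sting1 DKO and 22.1, 20.6, and 39.9 in those labelled Sting1 KO. Its order of livers was close to that of *H2-Ab1*, and it rose by 1.43 on the log2 scale in Mcl1 KO livers (SE 0.34, edgeR adjusted p = 0.015). The annotated exons of *H2-Aa* and *H2-Eb1* share 118 bases on opposite strands, and whether the counting used strand is not given in the sources used here. *H2-Ea*, the alpha chain gene of the E molecule, had 0 counts in all 12 livers, which allows up to 3 counts a library, or 0.0663 to 0.104 CPM.

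*Cd74*, the invariant chain gene on chromosome 18 (60936899 to 60945731, plus strand), was the most abundant of the 8 genes per exon length. It had 128 ± 44.0 TPM (counts divided by exon length and then scaled to the same total in each library) in WT livers and 224 ± 46.0 in Mcl1 KO livers (mean ± SD, n = 3 each). In WT livers, *H2-Ab1* had 45.2 ± 16.9 TPM, *H2-Eb1* 39.2 ± 17.5, and *H2-Aa* 34.2 ± 14.1, 3 neighbors in this order whose spreads overlapped. In CPM, *Cd74* had 118, 71.2, and 76.7 in WT livers and 168, 168, and 151 in Mcl1 KO livers. The libraries labelled Mcl1 Sting1 DKO had 108, 100, and 165 CPM, and those labelled Sting1 KO had 69.7, 71.1, and 128. The Mcl1 KO livers were close together and above the WT livers, and the third Mcl1 Sting1 DKO liver reached them. The log2 fold change between Mcl1 KO and WT was 0.87 (SE 0.28, edgeR adjusted p = 0.0462), the highest p of the 6 called genes, and it passed in 3 of 12 fits that each left out 1 library. Of its exonic bases, 88 are shared with the microRNA gene *Mir5107* on the same strand.

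*H2-DMa* encodes the alpha chain of DM (chromosome 17, 34338515 to 34358958, plus strand), and *H2-DMb1* (34372046 to 34379204) and *H2-DMb2* (34362197 to 34370529) encode alternative beta chains. *H2-DMb1* had 4.85, 2.82, and 3.14 CPM in WT and 6.70, 11.3, and 8.25 in Mcl1 KO livers. It had 5.75, 5.26, and 7.5 CPM in the libraries labelled Mcl1 Sting1 DKO and 3.72, 2.81, and 4.87 in those labelled Sting1 KO. Its livers followed the order seen for the peptide-binding chains, with a rise in Mcl1 KO livers of 1.26 on the log2 scale (SE 0.28, edgeR adjusted p = 0.0113). *H2-DMa* had 5.36, 4.89, and 3.37 CPM in WT and 7.41, 9.24, and 9.08 in Mcl1 KO livers. Its levels were 5.78, 6.19, and 8.40 CPM in the libraries labelled Mcl1 Sting1 DKO and 4.25, 4.51, and 6.22 in those labelled Sting1 KO. The Mcl1 KO and WT livers did not overlap, and the log2 fold change was 0.91 (SE 0.22, edgeR adjusted p = 0.0178). *H2-DMa* shares 510 exonic bases, 11.8% of its own, with *Brd2* on the opposite strand, and *Brd2* had a log2 fold change of -0.11 (edgeR adjusted p = 0.777).

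*H2-DMb2* was the scarcer beta chain gene. It had 27 to 67 counts a library and 2.03 ± 0.342 TPM in WT livers, where *H2-DMb1* had 7.78 ± 2.77 (mean ± SD, n = 3 each). In CPM it had 0.844, 1.28, and 1.06 in WT livers and 1.32, 1.44, and 2.09 in Mcl1 KO livers. The libraries labelled Mcl1 Sting1 DKO had 0.969, 1.63, and 1.04 CPM, and those labelled Sting1 KO had 0.786, 0.929, and 1.21. Although the Mcl1 KO livers did not overlap the WT livers, the gap was small, and the log2 fold change of 0.58 was not past the threshold (SE 0.29, edgeR adjusted p = 0.172). *H2-DMb1* and *H2-DMb2* are neighboring paralogs, as the likeness of their promoter stretches also shows, and reads that match both could have been split between them or left out.

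*Ciita*, the coactivator gene on chromosome 16 (10297923 to 10347694, plus strand), did not set the genotypes apart. It had 4.14, 2.91, and 3.27 CPM in WT and 5.63, 3.52, and 3.16 in Mcl1 KO livers. It had 3.61, 3.97, and 5.34 CPM in the libraries labelled Mcl1 Sting1 DKO and 2.88, 2.18, and 3.64 in those labelled Sting1 KO. Mcl1 KO replicates 2 and 3, the livers with the highest levels of the peptide-binding chains, lay within the WT range of *Ciita*. The log2 fold change between Mcl1 KO and WT was 0.25 (SE 0.27, edgeR adjusted p = 0.524), from 82 to 272 counts a library. *Ciita* was also the least abundant of the 8 genes per exon length, with 1.13 ± 0.263 TPM in WT livers (mean ± SD, n = 3). Of its exonic bases, 5.73% are shared with *Dexi* on the opposite strand, which had a log2 fold change of -0.24 (edgeR adjusted p = 0.329).

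The calls in Mcl1 KO livers depended on the libraries. Without Mcl1 KO replicate 2 or without WT replicate 2, 0 of the 8 genes passed, and without WT replicate 3 only *H2-Ab1* and *H2-DMb1* did. The log2 fold change of *H2-Ab1* was then 1.28 (edgeR adjusted p = 0.0533), 1.40 (0.0556), and 1.54 (0.0463), and 5.36, 4.73, and 6.33% of all genes were called higher in these fits. WT replicates 2 and 3 also expressed Y-linked genes, and no Mcl1 KO liver did. In a fit with Y-linked expression as a covariate, *H2-Ab1* had a log2 fold change of 1.32 (edgeR adjusted p = 0.0621), *Cd74* had 0.58 (0.224), and 0 of the 8 genes passed where 5.93% of all genes were called higher. A fit to the 9 libraries without Y-linked expression, chosen after the data were seen, gave 1.15 for *H2-Ab1* (edgeR adjusted p = 0.331) and 0 of 8 calls, with 1 WT liver left, but only 0.00616% of all genes were called higher there, so the count says nothing particular of the 8. With the share of small RNAs as a covariate, *H2-Ab1* had 0.90 (edgeR adjusted p = 0.298), and 0 of the 8 passed, near the 2.24% of all genes called higher. The part of sex and of small RNA content in the difference was not tested beyond these fits.

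In the libraries labelled Mcl1 Sting1 DKO, the mean of each gene but *Ciita* was below that of Mcl1 KO livers, and none passed the test. The log2 fold changes were -0.95 for *H2-Ab1* (SE 0.35, edgeR adjusted p = 0.179), -0.83 for *H2-Eb1*, -0.73 for *H2-Aa*, -0.50 for *H2-DMb1*, -0.39 for *H2-DMb2*, -0.38 for *Cd74*, -0.33 for *H2-DMa*, and 0.06 for *Ciita*, with edgeR adjusted p between 0.179 and 0.909. By edgeR, 0% of all tested genes passed in this comparison, but without Mcl1 KO replicate 1 it was 20.2%. At an unadjusted p under 0.05, the 3 peptide-binding chains were counted, 3 of 8 where 20.6% of all genes were, and DESeq2 called 0 of the 8 and 4.77% of its genes. For 0 of the 8 genes did all Mcl1 Sting1 DKO livers lie below all Mcl1 KO livers, beside 9.28% of all tested genes, because the third Mcl1 Sting1 DKO liver, or the second for *H2-DMb2*, reached the Mcl1 KO range. The median log2 fold change of the 8 was -0.44, beside -0.002 over all tested genes. Without Mcl1 KO replicate 1, the *H2-Ab1* change was -1.21 (edgeR adjusted p = 0.0487), the single call for the 8 among the 12 fits that each left out 1 library, and 1 of 8 is no more than the 20.2% of all genes called there.

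**Figure D2:**
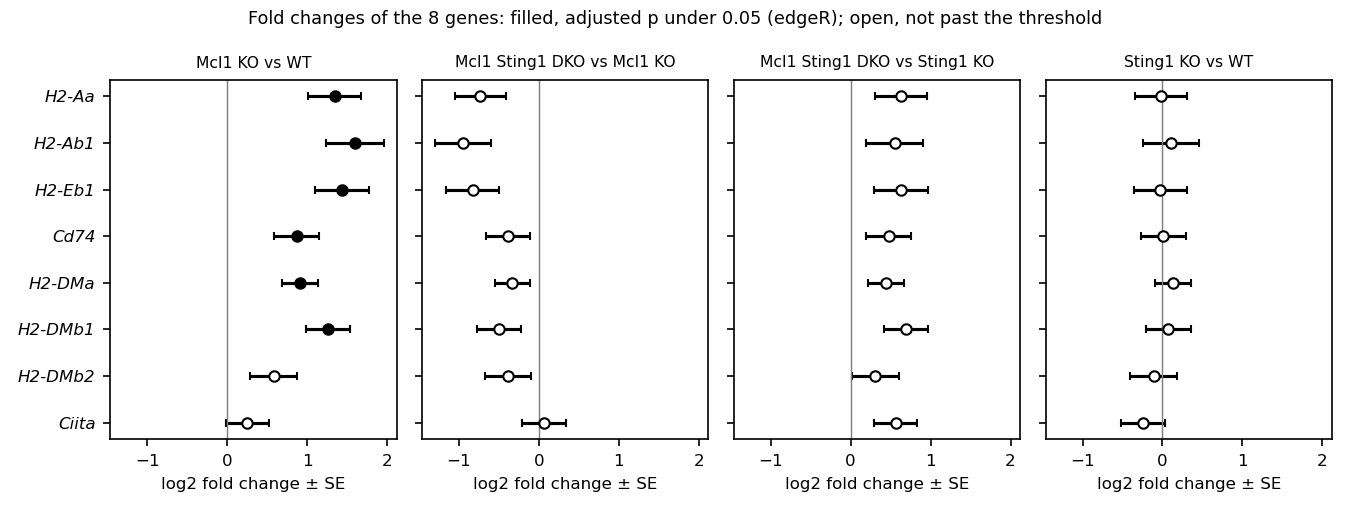
Log2 fold change (horizontal axis) ± SE of each of the 8 genes in 4 comparisons, with filled points for an edgeR adjusted p under 0.05. Filled points stand in the panel of Mcl1 KO against WT alone, where 6 of 8 genes passed, and the 3 peptide-binding chains have the lowest values in the panel of Mcl1 Sting1 DKO against Mcl1 KO.

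Deletion of *Mcl1* was also compared on the Sting1 KO background, between the libraries labelled Mcl1 Sting1 DKO and Sting1 KO. All 8 log2 fold changes were above 0, from 0.31 for *H2-DMb2* to 0.69 for *H2-DMb1*, with a median of 0.56 beside -0.009 over all tested genes. The peptide-binding chains had 0.63 (*H2-Aa*), 0.63 (*H2-Eb1*), and 0.55 (*H2-Ab1*), *Ciita* had 0.56, *Cd74* 0.47, and *H2-DMa* 0.44. None passed in edgeR (0.803% of all genes did, and 0.0065 to 1.62% when 1 library was left out) or in DESeq2 (2.95%). *H2-DMb1* was the 1 gene of 8 with an unadjusted p under 0.05 (11.3% of all genes) and the 1 gene whose livers did not overlap (11.5%), with an edgeR adjusted p of 0.355.

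Whether the effect of *Mcl1* deletion differed between the Sting1 KO and the WT background was tested as an interaction. The effect on *H2-Ab1* was smaller by 1.05 on the log2 scale on the Sting1 KO background (interaction -1.05, SE 0.50, edgeR adjusted p = 0.357), and those of *H2-Eb1* and *H2-Aa* had interactions of -0.81 (0.443) and -0.72 (0.476). *H2-DMb1*, *H2-DMa*, *Cd74*, and *H2-DMb2* had interactions between -0.57 and -0.28, and *Ciita* had 0.31. No gene of the 8 passed by edgeR (0% of all genes), at an unadjusted p under 0.05 (14.4%), or by DESeq2 (1.15%), so no difference between the backgrounds was detected. Without Mcl1 KO replicate 1, 0 of the 8 passed where 10.2% of all genes did, and the *H2-Ab1* interaction was -1.26.

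Between Sting1 KO and WT livers, all 8 log2 fold changes lay between -0.24 (*Ciita*) and 0.14 (*H2-DMa*), with standard errors of 0.22 to 0.35. None of the 8 passed by edgeR (0% of all genes), at an unadjusted p under 0.05 (5.45%), or by DESeq2 (0.264%). The sign of all 8 but *Ciita* turned when some single library was left out. Both groups held 1 liver above the other 2 for the peptide-binding chains and *Cd74*, WT replicate 1 and Sting1 KO replicate 3.

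The 8 genes moved together over livers for the most part. Each gene was centered on its mean log2 CPM over the 12 livers, and the mean of the 8 was 0.46, 0.84, and 0.65 in Mcl1 KO livers and -0.04, -0.59, and -0.54 in WT livers. It was -0.03, 0.002, and 0.46 in the libraries labelled Mcl1 Sting1 DKO and -0.60, -0.70, and 0.08 in those labelled Sting1 KO. The third Mcl1 Sting1 DKO liver thus had the same value as the first Mcl1 KO liver. As a description over 12 livers that share their genotypes, Pearson's r of log2 CPM was 0.98 to 0.99 among *H2-Aa*, *H2-Ab1*, and *H2-Eb1*, and 0.93 to 0.96 between these and *Cd74*. *H2-DMb1* had 0.97 to 0.98 with the same chains. *Ciita* had 0.51 to 0.57 with them and 0.73 with *Cd74*, and *H2-DMb2* had 0.52 to 0.58 with them.

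**Figure D3:**
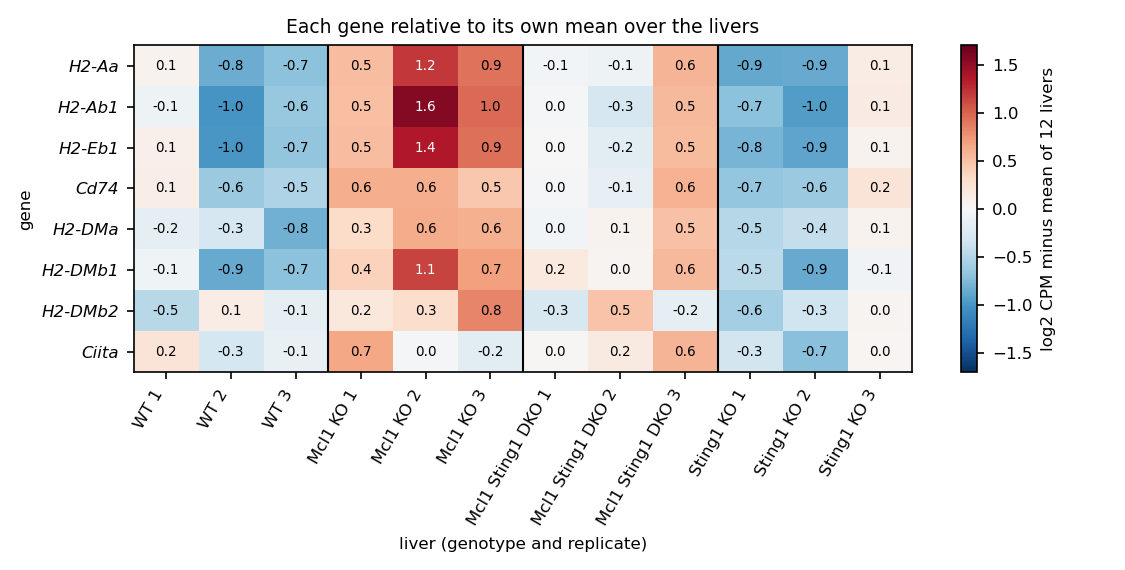
Log2 CPM of each gene (rows) in each liver (columns, by genotype and replicate) minus the gene's mean over the 12 livers, with red for values above that mean and blue for values below it. The peptide-binding chains, *Cd74*, *H2-DMa*, and *H2-DMb1* share 1 pattern, and the *Ciita* row is near 0 in Mcl1 KO replicates 2 and 3.

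Ratios taken within a liver showed where the genes did not move alike. *Cd74* had 1.03, 1.20, and 1.06 times the summed TPM of *H2-Aa*, *H2-Ab1*, and *H2-Eb1* in WT livers. The ratio was 0.955 to 1.0 in the libraries labelled Mcl1 Sting1 DKO and 1.04 to 1.17 in those labelled Sting1 KO. In Mcl1 KO livers it was 1.03 in replicate 1 but 0.557 and 0.685 in replicates 2 and 3, the lowest of all. The summed TPM of the same chains was 89.3 to 122 times that of *Ciita* in WT livers, 110 to 138 times in Mcl1 Sting1 DKO livers, and 102 to 149 times in Sting1 KO livers. It was 128 times in Mcl1 KO replicate 1 and 377 and 306 times in replicates 2 and 3, above every other liver. These were also the livers with the highest shares of small RNAs, 2.37 and 1.36% of counts, and the part of that share in the ratios was not tested.

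**Figure D4:**
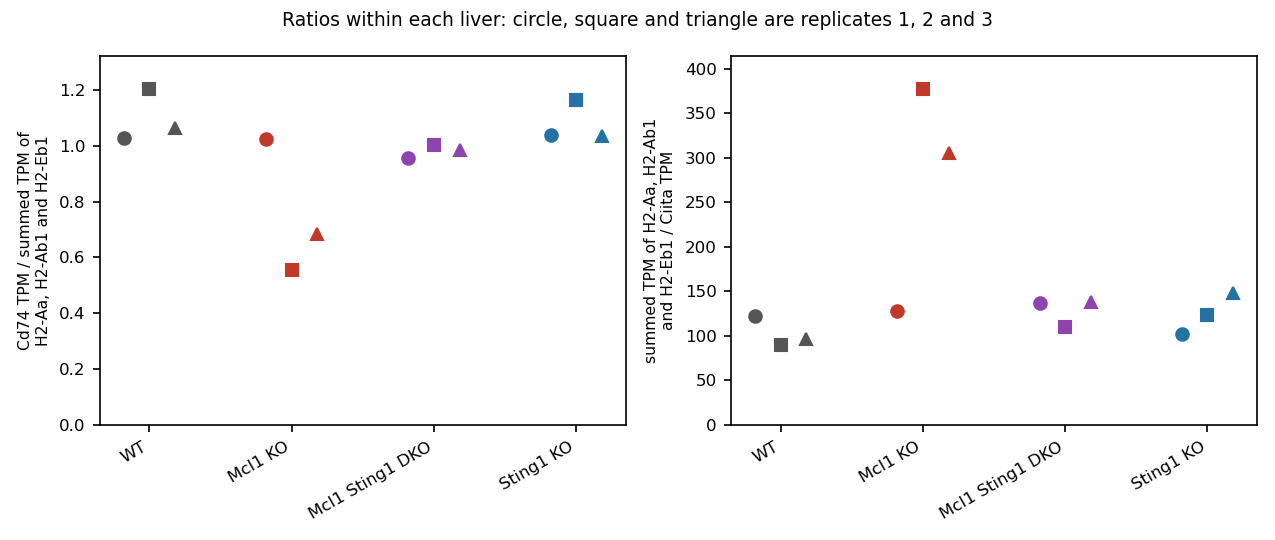
Ratio of *Cd74* TPM to the summed TPM of *H2-Aa*, *H2-Ab1*, and *H2-Eb1* (left) and of that sum to *Ciita* TPM (right) in each liver by genotype, on linear axes from 0. Mcl1 KO replicates 2 and 3 stand apart from the other 10 livers in both panels, and Mcl1 KO replicate 1 does not.

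The other class II loci were scarce. *H2-Oa* and *H2-Ob*, which encode the chains of DO, an inhibitor of DM, had 0.349 to 0.828 and 0.535 to 1.90 CPM over the 12 livers and did not pass in Mcl1 KO livers (log2 fold changes of 0.51 and 0.80, edgeR adjusted p = 0.315 and 0.213). *H2-Eb2*, a second E beta locus, had 0.106, 0.208, and 0.330 CPM in WT livers, 0.372, 0.704, and 0.474 in Mcl1 KO livers, and 0.234, 0.244, and 0.164 in the libraries labelled Mcl1 Sting1 DKO. With 4 to 23 counts a library, its log2 fold change of 1.09 was not past the threshold (SE 0.37, edgeR adjusted p = 0.0579). It was called higher on library totals (2591 of all 15070 genes were) and without Mcl1 KO replicate 1 (2503 of 15357).

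Among genes that act with the 8, most of those for handling antigen in endosomes rose. Of 8 listed genes, 6 rose in Mcl1 KO livers and 0 fell, where 10.8% of all genes were called higher and 9.43% lower, and the median was 0.64. *Ctss*, the protease that cuts the invariant chain in dendritic cells and B cells, had 49.6 ± 6.08 CPM in WT and 82.5 ± 12.9 CPM in Mcl1 KO livers (mean ± SD, n = 3 each), which is a log2 fold change of 0.73 (SE 0.14, edgeR adjusted p = 0.00663). *Lgmn*, an asparagine endopeptidase of lysosomes, rose by 0.88 (edgeR adjusted p = 0.00246), and *Ifi30*, a lysosomal thiol reductase that unfolds antigens, rose by 0.80 (edgeR adjusted p = 0.00983). *Cst3*, a gene for a secreted inhibitor of such proteases, rose as well, by 0.53 (edgeR adjusted p = 0.0396), and *Ctsb* and *Ctsd* made up the 6. *Ctsl* had 0.35 (edgeR adjusted p = 0.176), and *Sppl2a*, which removes the last membrane fragment of the invariant chain, had -0.41 (edgeR adjusted p = 0.0877). *Sppl2a* was called lower without Mcl1 KO replicate 1 and without WT replicate 1, where 2729 of 15357 and 1227 of 15368 genes were. The count of 6 was 4 without Mcl1 KO replicate 2, WT replicate 2, or WT replicate 3 and with the Y-linked covariate, 1 with the small RNA covariate, and 0 in the 9 libraries without Y-linked expression. In these last 3 fits, 5.93, 2.24, and 0.00616% of all genes were called higher. In the comparison of Mcl1 Sting1 DKO with Mcl1 KO livers, 0 of 8 passed in edgeR and in DESeq2, and the median was -0.34.

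The factors that sit on the promoters did not pass. None of the 7 genes for the RFX complex on the X box (*Rfx5*, *Rfxap*, *Rfxank*), the NF-Y complex on the Y box (*Nfya*, *Nfyb*, *Nfyc*), and *Creb1* was called in Mcl1 KO livers, 1 (*Nfyb*, -0.37, edgeR adjusted p = 0.121) had an unadjusted p under 0.05, and DESeq2 called 0. The log2 fold changes of the RFX genes were -0.05, -0.04, and 0.14. Without Mcl1 KO replicate 1, *Nfyb* and *Nfyc* were called lower, where 2729 of all 15357 genes were. Of 10 genes for interferon gamma signaling and *Ciita* induction, 9 were tested, 4 rose, and 0 fell, beside 10.8% of all genes called higher and 9.43% lower. *Ifng* itself had 0 to 9 counts a library and was not tested. The 4 were the receptor genes *Ifngr1* (0.71, edgeR adjusted p = 0.0167) and *Ifngr2* (0.85, 0.00468) and the myeloid transcription factor genes *Spi1* (1.03, 0.00455) and *Irf8* (1.15, 0.00116). All 4 also passed with the Y-linked covariate (5.93% of all genes), 1 passed with the small RNA covariate (2.24%), and 0 did in the 9 libraries (0.00616%). Of the signal carriers and responders downstream of the receptor, *Irf1*, *Jak1*, and *Jak2* did not pass, with 0.07 for *Irf1* (edgeR adjusted p = 0.884), -0.15 for *Jak1*, and -0.40 for *Jak2*. *Jak2* was called lower without Mcl1 KO replicate 1, where 2729 of all 15357 genes were. *Irf8* had 22.2 ± 2.12 CPM in Mcl1 KO livers and 14.3 ± 0.589 in the libraries labelled Mcl1 Sting1 DKO (mean ± SD, n = 3 each), which is a log2 fold change of -0.63 that passed in DESeq2 (adjusted p = 0.00587) and not in edgeR (adjusted p = 0.131).

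**Figure D5:**
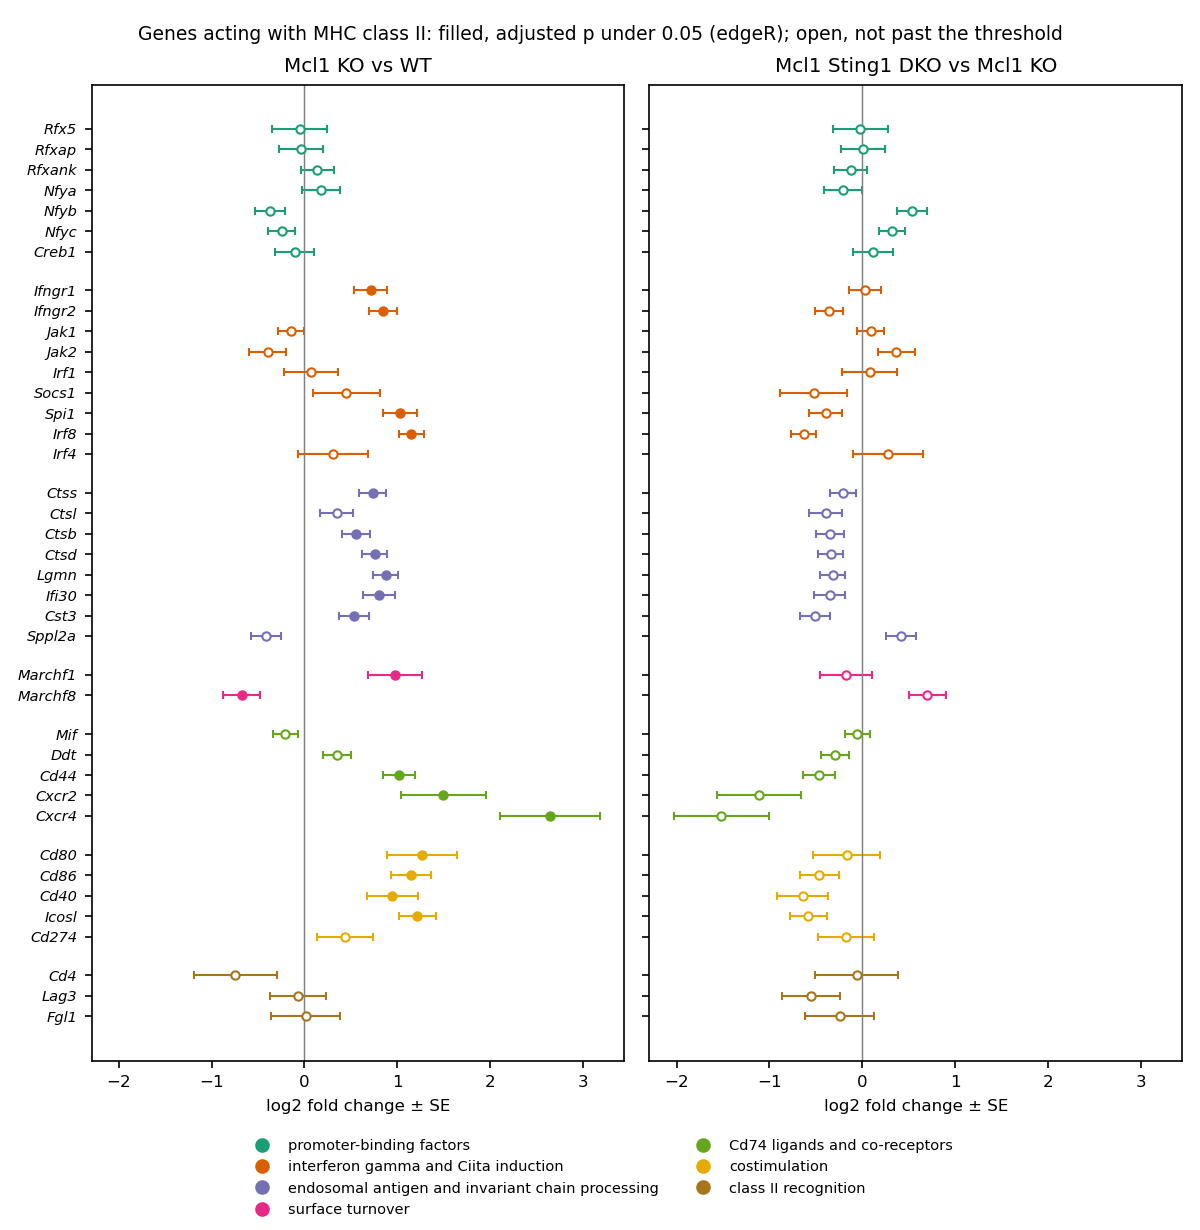
Log2 fold change (horizontal axis) ± SE of the tested genes of 7 lists around MHC class II, with colors for the lists and filled points for an edgeR adjusted p under 0.05. In Mcl1 KO against WT (left), filled points stand to the right of 0 for 6 of 8 processing genes and 4 of 5 costimulation genes, and none stands among the promoter-binding factors. In Mcl1 Sting1 DKO against Mcl1 KO (right), no point is filled.

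Of the 6 genes listed for costimulation, not all of which activate T cells, 5 were tested, 4 rose, and 0 fell, with a median of 1.15. Beside them, 10.8% of all genes were called higher and 9.43% lower. *Cd86* had 4.77 ± 1.22 CPM in WT and 10.6 ± 2.39 CPM in Mcl1 KO livers (mean ± SD, n = 3 each), and its log2 fold change was 1.15 (SE 0.21, edgeR adjusted p = 0.00555). *Icosl* rose by 1.22 (edgeR adjusted p = 0.00313), *Cd40* by 0.95 (0.033), and *Cd80* by 1.27 (0.0345), the last from 3 to 7 counts a library in WT and 10 to 27 in Mcl1 KO livers. *Cd80* was not called by DESeq2 (adjusted p = 0.0569). Without any 1 of the WT or Mcl1 KO libraries, 2 or 3 of the genes passed, with the Y-linked covariate 2 did (5.93% of all genes), and with the small RNA covariate (2.24%) or in the 9 libraries (0.00616%) 0 did. *Cd274*, which encodes the inhibitory ligand PD-L1, had 0.43 (edgeR adjusted p = 0.32). In the libraries labelled Mcl1 Sting1 DKO against Mcl1 KO, all 5 had values below 0, with a median of -0.46 and 0 calls in edgeR and in DESeq2.

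Around *Cd74* as a surface receptor, 3 of 5 genes rose in Mcl1 KO livers and 0 fell, beside 10.8% of all genes called higher and 9.43% lower. They were its signaling partner *Cd44* (1.02, edgeR adjusted p = 0.00392) and the chemokine receptor genes *Cxcr2* (1.5, 0.0394) and *Cxcr4* (2.64, 0.00805), whose products bind Mif as well. *Cxcr2* was not called without a filter on low counts or in a fit to the 6 libraries alone. Of the fits leaving out 1 library, it passed only without Mcl1 KO replicate 3, Mcl1 Sting1 DKO replicate 3, or Sting1 KO replicate 3. With the Y-linked covariate *Cd44* and *Cxcr4* passed (5.93% of all genes), and with the small RNA covariate (2.24%) or in the 9 libraries (0.00616%) 0 genes did. The ligand gene *Mif* had -0.21 (edgeR adjusted p = 0.283), and its relative *Ddt* had 0.35 (0.116). The ubiquitin ligase genes that limit class II at the surface went apart. *Marchf1* rose by 0.97 (SE 0.29, edgeR adjusted p = 0.0347), although its WT and Mcl1 KO livers overlapped, and *Marchf8* fell by 0.67 on the log2 scale (SE 0.20, edgeR adjusted p = 0.0347). Neither was called without Mcl1 KO replicate 2 or WT replicate 2, with either covariate, or in the 9 libraries. *Marchf8* was higher by 0.70 in the libraries labelled Mcl1 Sting1 DKO than in Mcl1 KO livers, which passed in DESeq2 (adjusted p = 0.0312) and not in edgeR (adjusted p = 0.138). On the side of the T cell, 0 of 3 genes passed. *Cd4* had -0.74 (edgeR adjusted p = 0.248), *Lag3*, an inhibitory receptor for class II, had -0.07 (0.887), and *Fgl1*, another ligand of Lag3 that hepatocytes secrete, had 0.02 (0.982). Without WT replicate 1, *Cd4* was called lower, where 1227 of all 15368 genes were.

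Markers of cells that carry MHC class II moved with these genes in part. The counts of markers that rose stand beside 10.8% of all genes called higher in Mcl1 KO livers and 9.43% called lower. In whole liver, more cells of a type and more RNA per cell cannot be told apart. The summed CPM of 6 monocyte markers was 11.4 to 15.1 in WT livers, 31.0 to 75.1 in Mcl1 KO livers, 17.02 to 22.0 in the libraries labelled Mcl1 Sting1 DKO, and 10.9 to 15.5 in those labelled Sting1 KO. Of the 6, 5 rose in Mcl1 KO livers, led by *Chil3* (3.52, edgeR adjusted p = 0.0112), and Mcl1 KO replicate 2, the liver with the highest peptide-binding chains, had the highest sum. The sum of 10 dendritic cell markers was 10.4 to 15.2 CPM in WT livers, 17.2 to 25.6 in Mcl1 KO livers, 15.7 to 17.05 in Mcl1 Sting1 DKO livers, and 10.01 to 13.1 in Sting1 KO livers. Of these 10, 3 rose in Mcl1 KO livers, *Cd209a* (2.26, edgeR adjusted p = 0.0105), *Itgax* (1.63, 0.007), and *Clec9a* (1.04, 0.0489), whereas *Flt3* had 0.59 (0.427), *Xcr1* 0.37 (0.497), and *Zbtb46* -0.10 (0.728). *Clec9a* was not called by DESeq2, without a filter on low counts, or in a fit to the 6 libraries alone. Of the fits leaving out 1 library, it passed only without Mcl1 KO replicate 1, Mcl1 Sting1 DKO replicate 3, or Sting1 KO replicate 3.

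Kupffer cell and macrophage markers summed to 546 to 856 CPM in WT livers, 983 to 1081 in Mcl1 KO livers, 927 to 1068 in the libraries labelled Mcl1 Sting1 DKO, and 698 to 937 in those labelled Sting1 KO. Of these 10, 6 rose in Mcl1 KO livers, among them *Marco* (2.08, edgeR adjusted p = 0.0169) and *C1qa* (0.97, 0.00745), and *Vsig4* (0.14), *Timd4* (-0.28), *Clec4f* (0.43), and *Csf1r* (-0.07) did not pass. For these lists too, 10.8% of all genes were called higher and 9.43% lower. The B cell markers summed to 17.5 to 53.0 CPM in WT livers and 14.4 to 31.0 in Mcl1 KO livers, with 19.2 to 50.3 in Mcl1 Sting1 DKO and 15.1 to 28.82 in Sting1 KO livers, and 0 of 10 passed. T cell markers summed to 2.45 to 2.94 CPM in WT livers and 4.20 to 6.36 in Mcl1 KO livers, with 3.44 to 4.70 in Mcl1 Sting1 DKO and 3.32 to 5.19 in Sting1 KO livers. The median of 4.96 in Sting1 KO livers was as high as the 4.90 of Mcl1 KO livers. Of the 6 T cell markers tested, 2 rose in Mcl1 KO livers, *Cd8a* (1.7, edgeR adjusted p = 0.0174) and *Cd3d* (1.30, 0.0353). *Cd3d* was not called in several other fits, among them those without a filter on low counts and to the 6 libraries alone. Without Mcl1 KO replicate 2 or without WT replicate 2, 4 monocyte, 2 dendritic cell, 3 macrophage, and 0 T cell markers passed. In these fits, 5.36 and 4.73% of all genes were called higher. With the Y-linked covariate, 5 monocyte, 2 dendritic cell, 4 macrophage, and 0 T cell markers passed, where 5.93% of all genes were called higher. With the small RNA covariate, where 2.24% of all genes were called higher, 0 of any of these lists passed. Of 8 sinusoidal endothelial, 6 cholangiocyte, and 6 hepatocyte markers, 0 passed in edgeR, and their sums overlapped between WT and Mcl1 KO livers. Hepatocyte markers stood at 85034 to 147477 CPM over the 12 livers, as the label of liver implies, and the part of each cell type in the levels of the 8 genes was not tested.

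The genes most like the 8 over the 12 livers were sought among 12551 other genes with at least 1 CPM on average, by Pearson's r with the mean of the centered log2 values. The first was *Mir5107*, with 0.95, which shares exonic bases with *Cd74*. *Ctbp2*, *Renbp*, *Tm6sf1*, *Fxyd5*, *Klc1*, *Entpd1*, *Procr*, *Slamf8*, and *Anxa3* followed, with 0.94 to 0.93. *Slamf8*, a surface protein gene of myeloid cells, had mean levels of 1.22 CPM in WT, 5.53 in Mcl1 KO, 2.84 in Mcl1 Sting1 DKO, and 1.56 in Sting1 KO livers. *Entpd1*, which encodes the ATP-splitting ectoenzyme CD39, had 9.06, 18.2, 13.5, and 9.17 CPM in the same order. In both, as in the peptide-binding chains, the mean was highest in Mcl1 KO livers and second in those labelled Mcl1 Sting1 DKO. This order follows from the choice of genes by likeness to the 8 in the same livers, and is no separate result.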

How the data were processed

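Total RNA of 12 mouse livers was extracted with a Qiagen RNeasy kit (the labels and the methods name different versions), sequenced on an Illumina NovaSeq, and processed at the FGCZ on its SUSHI platform. The values the authors deposited are read counts per gene, as whole numbers that were not normalized. The submitters' processing notes name STAR, featureCounts, and GRCm39. The annotation release, the use of strand, and the handling of reads with several matches are not given in the sources used here, so values of overlapping and near-identical genes are uncertain. Depth was 28826367 to 45266387 counts a library, and limits of a count of 0 cover counting error only. Genotype was taken from the labels, and replicates were numbered in accession order.

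Log2 fold changes and TMM-scaled CPM were computed from the counts in R 4.3.3 with edgeR 4.0.16. Genes were kept by filterByExpr with genotype as the group, the prior count was 2, and glmQLFit was followed by glmQLFTest. All 12 libraries entered 1 model without covariates, and p-values were adjusted by Benjamini-Hochberg over 15070 genes. SE is the size of the log2 fold change divided by the square root of F. Alternatives were DESeq2 1.42.0, other scalings and filters, covariates, a block for the replicate number, and the omission of single libraries. In simulated counts, 200 genes changed by 2 on the log2 scale between Mcl1 KO and WT, and edgeR recovered 197 of them among 15009 genes with 5 false calls, DESeq2 197 among 17421 with 20. TPM used exon lengths of GENCODE vM39 (GRCm39), which lacks 1018 of 40551 identifiers, and the missing ones took 0.101% of counts at most in any library. Libraries of the same genotype differed by far more than sampling noise. Tables and plots were made in Python 3.11.15 (pandas 2.3.3, numpy 2.4.6, matplotlib 3.10.9).

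The 8 genes, the pathway lists, and the markers were chosen with earlier results of these data known. Named by rule are the 8 in every comparison, *Mcl1* and *Sting1*, up to 4 examples a list by size or described role, and the 10 genes most like the 8. The text names further list and marker genes, *Brd2*, and *Dexi*, picked with their values in view. The other data of the study were not analysed here. One gene of the interferon gamma list is not reported here and was left out of that list's counts.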

Additional observations from a re-analysis of the deposited data

How the results depend on the processing

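In Mcl1 KO against WT livers, 6 of the 8 genes were called under DESeq2, RLE scaling, library totals, and no filter on low counts, and 5 were in a fit to the 6 libraries alone. With Y-linked expression as a covariate, with the share of small RNAs as a covariate, and in the 9 libraries without Y-linked expression, 0 were called, and the fits that each left out 1 library called 0 to 6. Fits without 1 Mcl1 Sting1 DKO or Sting1 KO library, or without WT replicate 1 or Mcl1 KO replicate 1 or 3, called 5 or 6. Between Mcl1 Sting1 DKO and Mcl1 KO, those fits called 0 to 1. In every other comparison, each alternative called 0 of the 8, as the test reported did. The replicate numbers do not pair the livers: deviations of same-numbered livers had r of -0.54 to 0.25. With the number as a replicate block, 6 genes were called between Mcl1 KO and WT.

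The sign turned for log2 fold changes near 0, and the cause was not tested. *Ciita* in Mcl1 KO against WT was -0.0157 in the 9 libraries, and -0.046 to 0.41 without 1 library. *Ciita* in Mcl1 Sting1 DKO against Mcl1 KO was -0.027 on library totals and -0.0999 with the small RNA covariate, and -0.11 to 0.37 without 1 library. In Sting1 KO against WT, the Y-linked covariate gave -0.17 for *H2-Ab1*, -0.086 for *H2-DMa*, -0.17 for *H2-DMb1*, and -0.28 for *Cd74*. The small RNA covariate gave -0.38 for *H2-Ab1*, -0.22 for *H2-DMb1*, -0.00256 for *Cd74*, and 0.0599 for *Ciita*. The 9 libraries gave -0.33 for *H2-Ab1*, -0.094 for *H2-DMa*, -0.34 for *H2-DMb1*, 0.20 for *H2-DMb2*, and -0.40 for *Cd74*, and the replicate block gave -0.022 for *Cd74*. Without 1 library, the same comparison ranged from -0.42 to 0.32 for *H2-Aa*, -0.29 to 0.39 for *H2-Ab1*, -0.39 to 0.34 for *H2-Eb1*, -0.052 to 0.27 for *H2-DMa*, -0.14 to 0.35 for *H2-DMb1*, -0.28 to 0.040 for *H2-DMb2*, and -0.33 to 0.28 for *Cd74*. For the interaction, the small RNA covariate gave 0.039 for *H2-DMb2* and -0.16 for *Ciita*, the Y-linked covariate gave 0.056 for *Cd74*, and the 9 libraries gave 0.12 for *Cd74*.

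Depth limits *H2-DMb2*, at 27 to 67 counts a library, and *Ciita*, at 82 to 272, more than the peptide-binding chains, and 3 livers a genotype limit all comparisons.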

Other observations

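The DM beta chain genes differed in their balance from liver to liver. The ratio of *H2-DMb1* to *H2-DMb2* TPM was 5.62, 8.72, and 4.39 in Mcl1 KO replicates 1 to 3, beside 2.45 to 8.01 in the other 9 livers, so the genotypes overlapped. The ratio of *H2-Aa* to *H2-Ab1* TPM was 0.551 in Mcl1 KO replicate 2, the lowest of all livers, and 0.627 to 0.810 in the other 11. *Cd4*, whose product recognizes MHC class II, ranged from 0.607 to 3.47 CPM in WT livers, a wider range than the 1.11 to 1.47 CPM of Mcl1 KO livers. These values were picked after they were seen.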
